A study of Gallus gallus with 6 samples.

Results

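Aminoacyl-tRNA synthetases are the enzymes that join each amino acid to its transfer RNA, and 38 genes of this family and its close relatives were examined in cultured chicken lens. Members were the protein-coding genes whose deposited description names a tRNA synthetase or tRNA ligase, 38 of 24356 genes in the table. By description and symbol, 14 of them are mitochondrial, and the other 24 are called cytosolic here. RNA was sequenced from explants of chicken (Gallus gallus) ocular lens that model the eye after cataract surgery, in 3 libraries given the vehicle DMSO and 3 given GSK-J4, which inhibits KDM6-family histone demethylases. Both groups grew in 10% serum at 37 degrees Celsius under 5% CO2, and each agent was added daily on days 1 to 3 after the injury. The sources used here do not give the dose, the age, strain or sex of the birds, or how many lenses made a library.

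In the cytosol, synthetases supply charged tRNA to the ribosomes that translate nuclear genes, and several of them sit together in the multisynthetase complex, which is held by scaffold proteins. Mitochondria translate the few proteins of their own genome with a second set of synthetases, encoded in the nucleus and mostly by separate genes. When an amino acid runs short, uncharged tRNA activates the kinase GCN2 (gene EIF2AK4), translation slows and the transcription factor ATF4 is made, and in mammals ATF4 is known to raise many cytosolic synthetase genes together with amino acid transporters and synthesis enzymes. Synthetases fall into class I and class II by the fold of their catalytic domain.

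With GSK-J4, 2 of the 38 members rose and 0 fell at an adjusted p below 0.05 in edgeR's quasi-likelihood test, and 36 did not pass. The risen genes were SARS and QARS, which charge serine and glutamine in the cytosol. Over all 12583 genes tested, 1.05% were called higher and 3.99% lower, 5.04% in all. Since the tissue was sequenced in bulk, a change in RNA per cell cannot be told apart from a change in the mix of cells. The 24 cytosolic members had a median log2 fold change of 0.18, and 62.5% of them lay above 0. Without the 4 that are not synthetases themselves, all below 0, the 20 cytosolic enzymes had a median of 0.29. The median was 0.05 for the 14 mitochondrial enzymes and 0.01 for all genes tested. Of the 20, 15 lay above 0 where 52.2% of all genes did, or 13 when libraries were scaled by their totals, which put the median of all genes at -0.08. At an unadjusted p below 0.05, 10 members were higher and 2 lower, where 8.1% and 11% of all genes were. All 10 were cytosolic enzymes, and the 2 were AIMP2 and MARS2. DESeq2 called 7 members higher (SARS, QARS, IARS, GARS, TARS, YARS and HARS) and 0 lower, and 325 higher and 723 lower of all 12583 genes. In limma-trend on FPKM, 2 were called higher and 0 lower with either pseudocount. Of 12318 genes in that fit, 92 and 88 were higher and 329 and 319 lower (pseudocounts 0.1 and 1). Without the filter on low counts, edgeR called 3 members higher: SARS, QARS and YARS. That fit called 269 higher and 613 lower of 17951 genes. Each of the 38 members passed the filter on low counts, with no count below 48 in any library.

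The library totals were 14862268 to 22541756 counts. Lens genes were abundant: 50909.7 CPM (counts scaled to library size) of the alpha crystallin gene CRYAA and 1084 CPM of the fibre water channel gene MIP with DMSO. The retina and pigment epithelium markers summed to at most 3.59 CPM in a library, with the pigment gene TYR at 0 and RPE65 at 0.813 to 1.99. The blood markers summed to at most 7.28 CPM over 5 genes, with the globin gene HBBA at 0 and CSF1R at 0.359 to 5.35. The 3 endothelial markers summed to at most 32.7 CPM, with CDH5 at 0, PECAM1 at 8.43 to 20.0 and KDR at 9.99 to 17.5. The 4 muscle markers summed to at most 38.4 CPM, with MYOG at 0 and DES, most of that sum, at 16.2 to 37.9. These levels do not show such cells to be absent. The summed CPM of 34 genes of chromosome W, which only female birds carry, was 389, 935 and 906 in DMSO replicates 1, 2 and 3 and 348, 760.0 and 15.1 in GSK-J4 replicates 1, 2 and 3, lowest by far in the last. The lens markers (13 genes in the table) summed to between 111346 and 127227 CPM per DMSO library and between 124097 and 162360.0 per GSK-J4 library, and their part in the values given here was not tested.

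SARS, the seryl-tRNA synthetase gene, had the highest level of any member per kilobase, 91.5 ± 9.04 FPKM with DMSO (fragments per kilobase, scaled to library size; SD, n = 3). Its level was 193, 235 and 217 CPM in DMSO replicates 1, 2 and 3 and 295, 356 and 336 CPM in GSK-J4 replicates 1, 2 and 3. Every GSK-J4 library stood above every DMSO library, with the highest in GSK-J4 replicate 2. The log2 fold change was 0.61 (SE 0.12, edgeR adjusted p = 0.0122), a rise from 215 ± 20.6 to 329 ± 31.1 CPM (mean ± SD, n = 3 each). SARS (ENSGALG00000026809, chromosome 26, 1158656 to 1164305, plus strand) is a class II enzyme that works outside the multisynthetase complex. QARS, the glutaminyl-tRNA synthetase gene, had 117, 116 and 119 CPM in DMSO replicates 1, 2 and 3 and 159, 176 and 166 CPM in GSK-J4 replicates 1, 2 and 3. The DMSO libraries of QARS lay close together and all 3 GSK-J4 libraries stood above them. It rose from 118 ± 1.49 to 167 ± 8.60 CPM (mean ± SD, n = 3 each), a log2 fold change of 0.51 (SE 0.10, edgeR adjusted p = 0.0141). QARS (ENSGALG00000029980, chromosome 12, 11997117 to 12002006, plus strand) is a class I enzyme of the complex. Both calls were lost when GSK-J4 replicate 2 or 3 was left out, and kept without any 1 of the other libraries: adjusted p was 0.078 for SARS and 0.096 for QARS without GSK-J4 replicate 2, and 0.056 and 0.069 without GSK-J4 replicate 3. Their fold changes hardly moved, to 0.56 and 0.48 without the former and to 0.60 and 0.52 without the latter. With the chromosome W counts as a covariate, an alternative chosen after seeing the data, neither was called (adjusted p = 0.079 and 0.094), at log2 fold changes of 0.63 and 0.52.

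**Figure D1:**
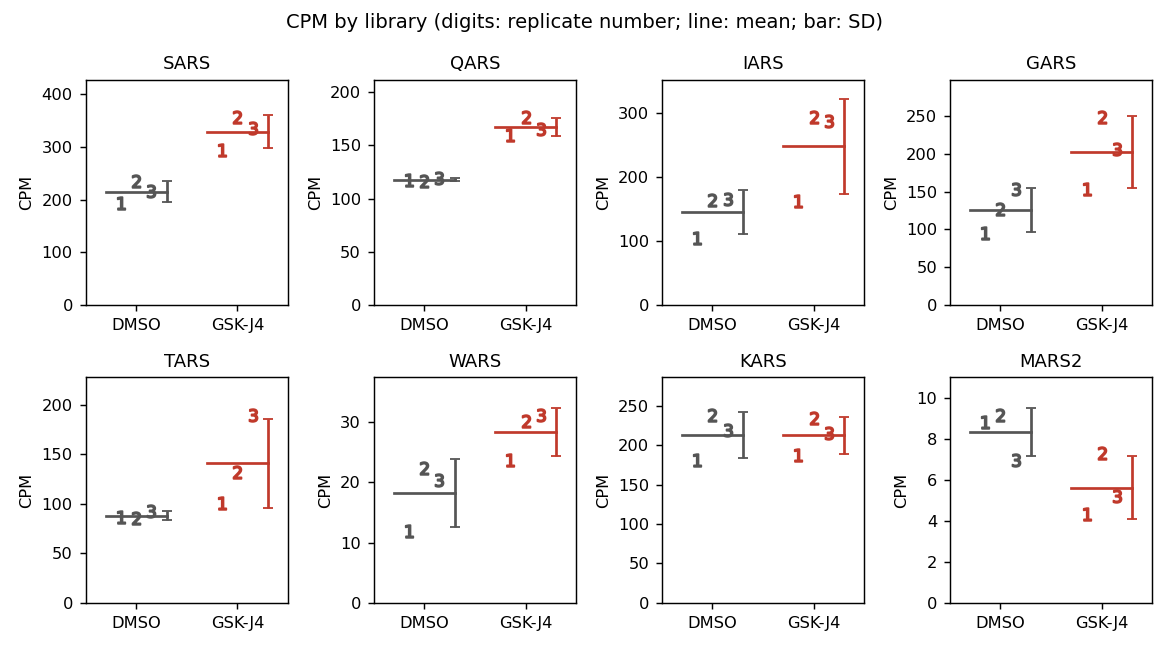
CPM of 8 members by library, each digit being the replicate number, with the group mean as a line and the SD as a bar (n = 3). SARS and QARS stand higher in every GSK-J4 library, KARS has the same mean in both groups, TARS is highest in GSK-J4 replicate 3, and DMSO replicate 1 is lowest of all libraries for IARS, GARS and WARS.

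The largest fold changes among the members were not those of the called genes. IARS, the isoleucyl-tRNA synthetase of the complex, had 105, 164 and 166 CPM in DMSO replicates 1, 2 and 3 and 162, 293 and 287 CPM in GSK-J4 replicates 1, 2 and 3. GSK-J4 replicate 1 lay within the DMSO range while GSK-J4 replicates 2 and 3 lay far above it, so the groups overlapped. The log2 fold change was 0.77 (SE 0.24) and did not pass (edgeR adjusted p = 0.0997), although without GSK-J4 replicate 1 it was 1.00 with an adjusted p of 0.015. GARS, which in vertebrates encodes the glycyl enzyme of both cytosol and mitochondria, had 95.6, 127 and 154 under DMSO and 153, 248 and 206 CPM under GSK-J4 for replicates 1, 2 and 3. Here too only GSK-J4 replicate 1, by a narrow margin, fell within the DMSO range. The GARS value was 0.69 (SE 0.20, edgeR adjusted p = 0.0745), and 0.86 without GSK-J4 replicate 1 (adjusted p = 0.032). TARS, the main threonyl-tRNA synthetase gene, also passed without GSK-J4 replicate 1 (adjusted p = 0.013), which made 5 called members in that fit. That fit called 134 higher and 395 lower of 12897 genes. With no library left out, DESeq2 called IARS, GARS and TARS.

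TARS (ENSGALG00000003288, chromosome Z, 10102092 to 10116802, plus strand) lies on chromosome Z, of which male birds carry an extra copy. Its level was 86.5, 85.4 and 93.0 CPM in DMSO replicates 1, 2 and 3 and 101, 133 and 189.8 CPM in GSK-J4 replicates 1, 2 and 3. The groups did not overlap, and the highest value was that of GSK-J4 replicate 3, the library with the least chromosome W RNA. In that library the 560 tested Z genes had a median of 0.31 on the log2 scale over the DMSO mean, against 0.08 and 0.06 in GSK-J4 replicates 1 and 2. The TARS log2 fold change was 0.67 (SE 0.19, edgeR adjusted p = 0.0721), 0.40 without that library and 0.40 with the chromosome W covariate. What chromosome dosage contributed to the TARS value was not tested. Since that library has by far the lowest chromosome W sum, both values of 0.40 turn on it. They cannot tell chromosome dosage from any other trait of that library. NARS, the asparaginyl enzyme and the other member on chromosome Z (ENSGALG00000040506, chromosome Z, 366942 to 378517, plus strand), had 99.9, 103 and 109.6 under DMSO and 94.1, 105 and 97.3 CPM under GSK-J4 and was not highest in GSK-J4 replicate 3. Its log2 fold change was -0.07 (95% interval -0.30 to 0.15). TARSL2, a second threonyl-tRNA synthetase gene on chromosome 10, stood at 0.05 (95% interval -0.22 to 0.32), and at -0.05 when libraries were scaled by their totals.

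WARS, the tryptophanyl enzyme known in mammals as an interferon-induced gene, was the cytosolic enzyme with the lowest level, 9.84 ± 3.08 FPKM with DMSO (SD, n = 3). It had 11.8, 22.4 and 20.4 under DMSO and 23.7, 30.1 and 31.1 CPM under GSK-J4, with no overlap, and DMSO replicate 1 lay well under the other DMSO libraries. The log2 fold change of 0.64 (SE 0.22) did not pass (edgeR adjusted p = 0.137), and was 0.40 without DMSO replicate 1. CARS, the cysteinyl enzyme, had 34.0, 59.9 and 54.6 under DMSO and 50.6, 81.4 and 92.1 CPM under GSK-J4, with GSK-J4 replicate 1 inside the DMSO range and a log2 fold change of 0.59 (SE 0.24, edgeR adjusted p = 0.202), or 0.38 without DMSO replicate 1. YARS, the tyrosyl enzyme, showed 78.1, 75.4 and 86.7 under DMSO and 99.4, 119 and 106 CPM under GSK-J4, and HARS, the histidyl enzyme, 84.2, 74.5 and 93.4 under DMSO and 114, 107 and 112 CPM under GSK-J4. Both had ranges that did not overlap. Their log2 fold changes were 0.43 (SE 0.11) and 0.40 (SE 0.11), just short of the threshold with edgeR adjusted p of 0.0567 and 0.0715. DESeq2 called YARS and HARS. In all, 6 of the 20 cytosolic enzymes (30%, or 25% of the 24 cytosolic members) stood higher in every GSK-J4 library than in every DMSO library. Of all tested genes, 10.8% did. The 6 were SARS, QARS, TARS, WARS, YARS and HARS.

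**Figure D2:**
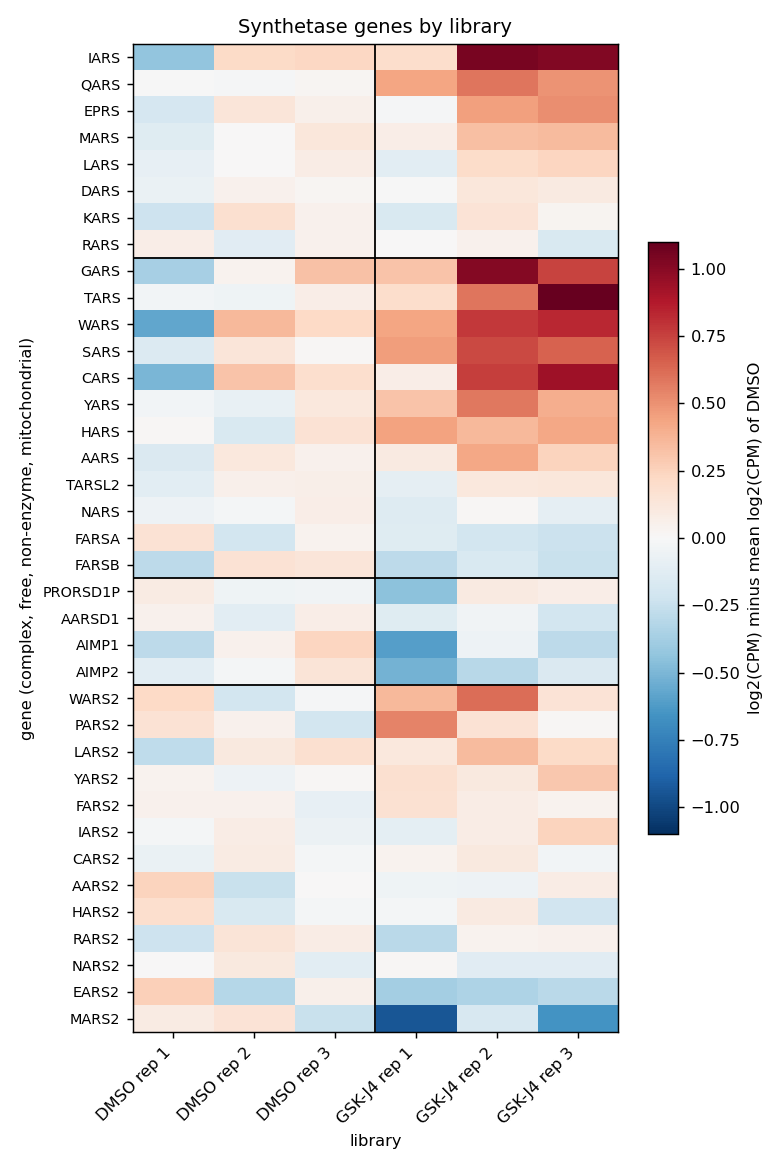
Log2 CPM of 37 members in each library, less its mean over the DMSO libraries, as colour. Blocks from top to bottom are multisynthetase complex enzymes, free cytosolic enzymes, non-enzymes and partial homologues, and mitochondrial enzymes; the upper rows of the complex and free enzyme blocks are higher in GSK-J4 replicates 2 and 3 than in GSK-J4 replicate 1, while most mitochondrial rows stay pale.

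Of the 8 enzymes of the multisynthetase complex, 1 (QARS) was called, and 6 had a fold change above 0, or 5 when libraries were scaled by their totals. For all genes tested, 1.05% were called higher and 52.2% had a fold change above 0. EPRS, which joins the glutamyl and prolyl enzymes in a single protein, had a log2 fold change of 0.33 (SE 0.15, edgeR adjusted p = 0.256), and MARS, the methionyl enzyme, 0.25 (SE 0.12, edgeR adjusted p = 0.276). In both, GSK-J4 replicate 1 fell within the DMSO range. LARS (0.12), a leucine enzyme that also serves as a leucine sensor in mammalian cells, DARS (0.08), the aspartyl enzyme, KARS (-0.00), the lysyl enzyme, and RARS (-0.04), the arginyl enzyme, had 95% intervals within 1.5-fold of no change. The MARS interval, -0.01 to 0.51, also lay within 1.5-fold. KARS, which like GARS serves cytosol and mitochondria from a single gene, had 181, 238 and 219 CPM in DMSO replicates 1, 2 and 3 and 187, 234 and 215 CPM in GSK-J4 replicates 1, 2 and 3. The KARS means, 212 ± 29.2 under DMSO and 212 ± 23.6 CPM under GSK-J4 (SD, n = 3), were equal to the precision given, and its 95% interval was -0.29 to 0.29. The sign of the DARS, KARS and RARS values depended on the scaling or the fit: DARS was -0.02 with library totals, and KARS and RARS were 0.04 and 0.02 with the chromosome W covariate. The gene span of RARS overlaps that of WWC1 by 1255 bp, and that of KARS overlaps ADAT1 by 658 bp, in each case on the same strand. Overlap of their exons was not examined.

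Among the 12 free cytosolic enzymes, 1 (SARS) was called and 7 had an unadjusted p below 0.05, all of them higher. For all genes tested, 1.05% were called higher and 8.1% were higher at an unadjusted p below 0.05. The median log2 fold change was 0.42, or 0.32 with library totals, against 0.18 and 0.08 for the complex enzymes, and no test compared the 2 sets. AARS, the alanyl enzyme with its own proofreading site, had a log2 fold change of 0.26 (SE 0.12, edgeR adjusted p = 0.273). FARSA and FARSB, the alpha and beta subunits of the phenylalanyl enzyme, were the cytosolic enzymes with the lowest values, -0.20 (SE 0.13) and -0.24 (SE 0.14). FARSA had 51.5, 40.1 and 47.1 under DMSO and 42.0, 40.0 and 39.2 CPM under GSK-J4, and FARSB 37.9, 51.8 and 50.8 under DMSO and 38.1, 41.3 and 39.2 CPM under GSK-J4. Neither passed (edgeR adjusted p = 0.452 and 0.389), and in both the groups overlapped: DMSO replicate 2 lay within the GSK-J4 range for FARSA, and DMSO replicate 1 lay below it for FARSB, which was at -0.37 without that library. The span of FARSA overlaps that of CALR on the other strand by 157 bp, and counting by strand is not stated.

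By class, 5 of 8 cytosolic class I enzymes were higher at an unadjusted p below 0.05, as were 4 of 11 of class II. Over all genes tested, 8.1% were. The median log2 fold changes were 0.47 and 0.08, and no test compared the classes. EPRS, which holds an enzyme of each class, was counted in neither and was also higher (edgeR unadjusted p = 0.048).

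**Figure D3:**
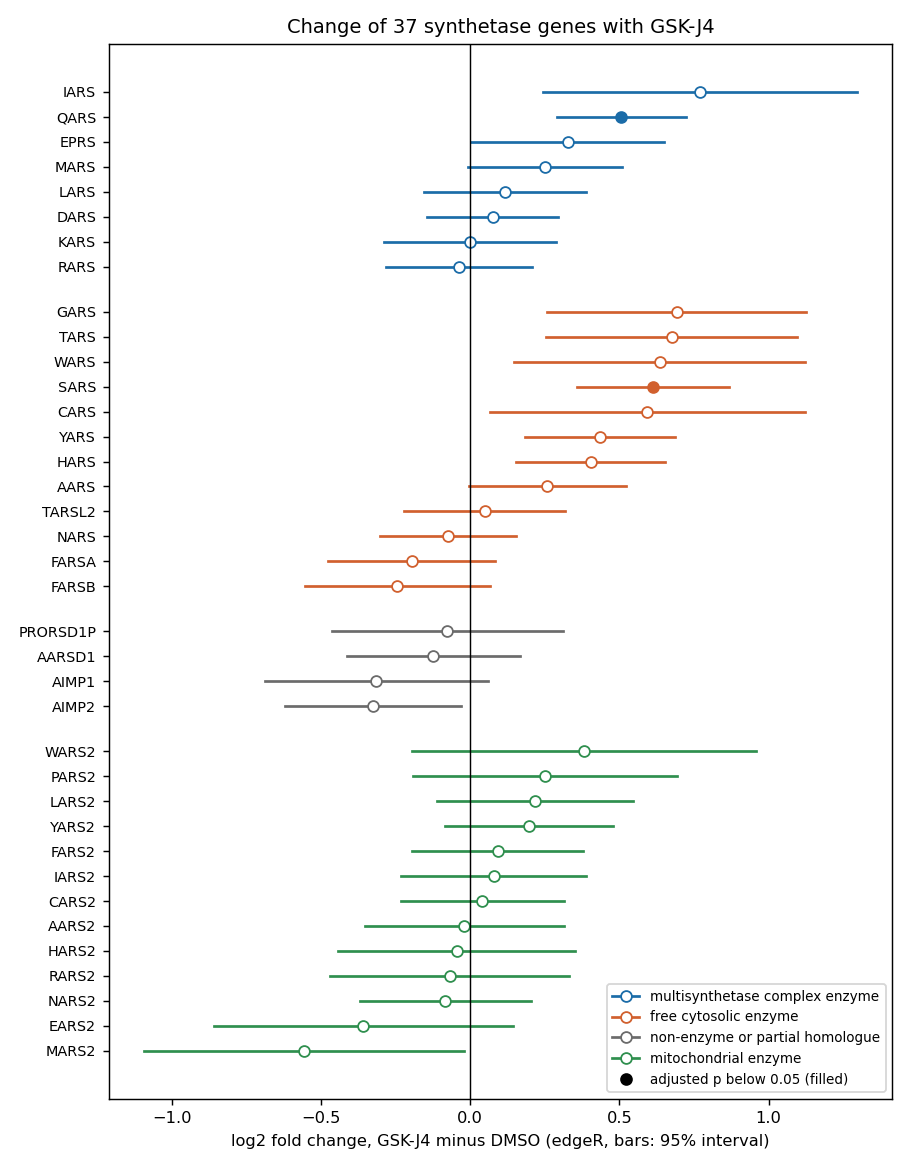
Log2 fold change of 37 members, GSK-J4 minus DMSO, with its 95% interval (edgeR, n = 3 per group), sorted within 4 role groups. Only the 2 filled points, QARS and SARS, have an adjusted p below 0.05; the 4 non-enzymes all lie left of 0, also with library totals, and MARS2 has the lowest value.

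The 4 members that are not synthetases themselves had fold changes below 0 under each of the 3 scalings, though PRORSD1P was at 0.08 without GSK-J4 replicate 1, and 0 were called in edgeR, DESeq2 or limma-trend. AIMP2, a scaffold of the multisynthetase complex, had 43.4, 46.3 and 51.7 CPM in DMSO replicates 1, 2 and 3 and 32.7, 38.1 and 42.1 CPM in GSK-J4 replicates 1, 2 and 3. Every GSK-J4 library lay below every DMSO library, as for 13.5% of all genes tested. Its log2 fold change of -0.33 (95% interval -0.62 to -0.03) had an unadjusted p of 0.034 and an edgeR adjusted p of 0.212. AIMP1, the other scaffold protein among the members and the precursor of the cytokine EMAPII, had 49.8, 62.7 and 71.4 under DMSO and 39.7, 58.3 and 49.6 CPM under GSK-J4, with overlap, and stood at -0.31 (SE 0.17, edgeR adjusted p = 0.357), or -0.18 when GSK-J4 replicate 1 was left out and -0.19 when DMSO replicate 3 was. AARSD1, which resembles the editing part of alanyl-tRNA synthetase, was at -0.12, and PRORSD1P, described as a pseudogene related to the prolyl enzyme though its biotype is protein-coding, at -0.08. The 95% intervals of these last 2 genes lay within 1.5-fold of no change.

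No mitochondrial enzyme was called, in edgeR or by DESeq2 or limma-trend, with 0 higher and 1 lower at an unadjusted p below 0.05. Of all genes tested, 8.1% were higher and 11% lower at that level. The median log2 fold change of the 14 was 0.05, and -0.05 with library totals, with 8 above 0, or 5 with library totals. The lower gene was MARS2, the mitochondrial methionyl enzyme, with 8.82, 9.17 and 6.98 CPM in DMSO replicates 1, 2 and 3 and 4.32, 7.33 and 5.24 CPM in GSK-J4 replicates 1, 2 and 3. DMSO replicate 3 fell below GSK-J4 replicate 2, so the groups overlapped, and MARS2 was at -0.56 (95% interval -1.09 to -0.02, edgeR adjusted p = 0.239) from 69 to 157 counts a library. EARS2, which charges glutamate and whose product also serves glutamine in mitochondria, followed at -0.36 (95% interval -0.86 to 0.14) with 7.51, 5.02 and 6.50 under DMSO and 4.82, 4.95 and 5.09 CPM under GSK-J4. At the other end, WARS2 (tryptophan) was at 0.38, PARS2 (proline) at 0.25 and LARS2 (leucine) at 0.22, with edgeR adjusted p of 0.477, 0.548 and 0.479. PARS2 was at 0.087 when GSK-J4 replicate 1 was left out and 0.16 when DMSO replicate 3 was, and LARS2 at 0.091 and EARS2 at -0.22 without DMSO replicate 1. YARS2 (tyrosine, 0.20) was the 1 mitochondrial member with every GSK-J4 library above every DMSO library, at 23.6, 22.1 and 23.1 under DMSO and 26.0, 24.8 and 28.3 CPM under GSK-J4. That is 7.1% of the 14, where 10.8% of all genes tested had such ranges. FARS2, IARS2, CARS2, AARS2, HARS2, RARS2 and NARS2 were between -0.08 and 0.09, and the signs of IARS2 and CARS2 turned with library totals. For 10 of the 14 the 95% interval lay within 1.5-fold of no change, and the exceptions were WARS2, PARS2, EARS2 and MARS2, the 4 mitochondrial genes with the largest standard errors. The gene span of AARS2, introns included, overlaps that of RNF8 on the opposite strand over 16813 bp, and that of IARS2 overlaps BPNT1 over 19544 bp, so the counts of these genes are uncertain if counting ignored strand, and overlap of their exons was not examined. The span of MARS2 overlaps that of the more abundant AIFM1 by 179 bp, and the span of HARS2 that of ZMAT2 by 143 bp, again on the other strand.

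Summed over the 20 cytosolic enzymes, CPM was 2068, 2395 and 2436 in DMSO replicates 1, 2 and 3 and 2494, 3154 and 3076 in GSK-J4 replicates 1, 2 and 3. The groups did not overlap, and the GSK-J4 mean was 1.26 times that of DMSO, 2908 ± 361 against 2299.9 ± 202 (SD, n = 3 each). With library totals the ratio was 1.18 and the ranges overlapped. The 14 mitochondrial enzymes summed to 242, 245 and 238 in DMSO replicates 1, 2 and 3 and 246, 253 and 251 in GSK-J4 replicates 1, 2 and 3, a ratio of 1.03, or 0.968 with library totals. For this sum too the groups did not overlap, narrowly, and with library totals they overlapped. Libraries of a group differed far less in the mitochondrial sum than in the cytosolic one.

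In both groups the library with replicate number 1 was the lowest for most cytosolic enzymes. DMSO replicate 1 was lowest of its group for 14 of the 20 cytosolic enzymes and GSK-J4 replicate 1 for 17 of 20, whereas these libraries were lowest for 4 and 5 of the 14 mitochondrial enzymes. GSK-J4 replicate 2 was highest in its group for 11 of the 20 and GSK-J4 replicate 3 for 7. The labels do not say that a shared number marks a shared animal or day.

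Per kilobase, cytosolic enzymes were mostly the more abundant, with some overlap between the compartments. In the deposited FPKM, the DMSO means of the 20 cytosolic enzymes ran from 9.84 (WARS) to 91.5 (SARS) with a median of 36.3, and those of the 14 mitochondrial enzymes from 2.63 (WARS2) to 17.2 (CARS2) with a median of 6.48. After SARS the highest were DARS (82.8 ± 4.55 FPKM), KARS (75.3 ± 10.7) and AARS (68.8 ± 7.10), and each neighbour in this order of 4 differed from the next by less than the larger of their SDs (n = 3). The highest mitochondrial enzymes were CARS2 (17.2 ± 0.985 FPKM), NARS2 (13.3 ± 0.851) and YARS2 (11.8 ± 0.480; SD, n = 3), and the lowest were WARS2 (2.63 ± 0.380) and EARS2 (3.41 ± 0.673). The scaffold AIMP2 stood at 45.2 ± 4.92 FPKM, within the range of the complex enzymes, and PRORSD1P at 7.10 ± 0.345.

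**Figure D4:**
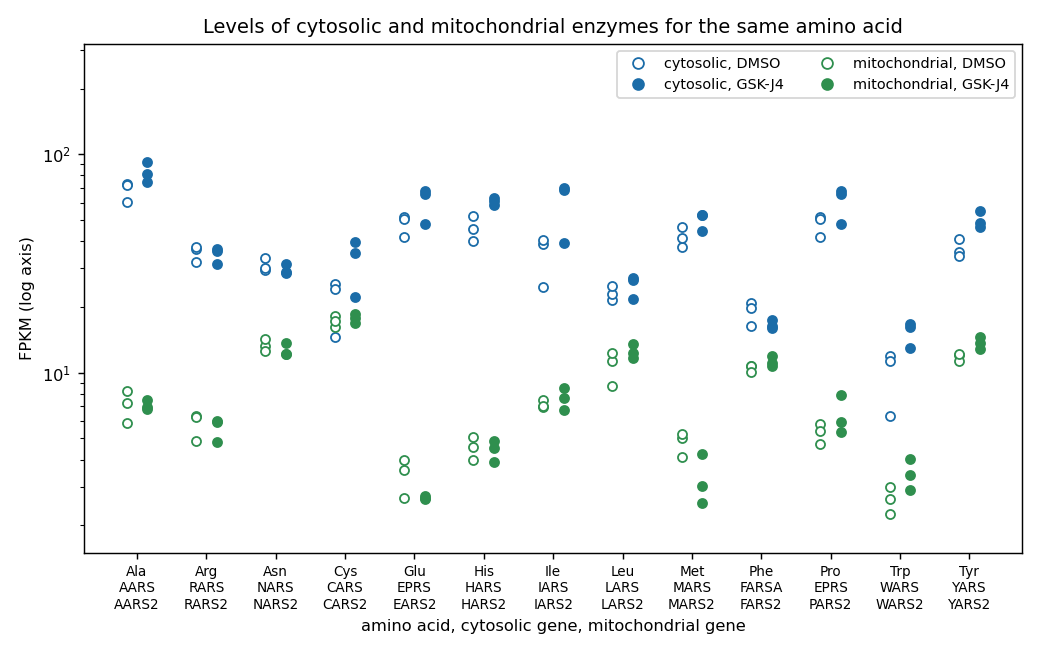
FPKM, on a log axis, of the cytosolic and the mitochondrial gene for the same amino acid, with 1 point per library, open for DMSO and filled for GSK-J4. The cytosolic gene is the higher of its pair in every library, except for cysteine in DMSO replicate 1, where CARS lies below CARS2.

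A cytosolic and a mitochondrial gene were compared for 13 amino acids, EPRS being counted for glutamate and again for proline and FARSA standing for phenylalanine. The cytosolic gene was the higher of the pair in the DMSO mean for all 13, by 1.23 times for cysteine to 14.7 times for glutamate. With GSK-J4 the ratio of cytosolic to mitochondrial FPKM, in which the scaling of libraries cancels, was on average higher (mean log2 ratio) for 11 of the 13 and lower for leucine and phenylalanine. The ranges of the ratio did not overlap for methionine, isoleucine and histidine, which were higher, and for phenylalanine, which was lower, and overlapped for the other 9. For comparison, the CPM ranges of single genes did not overlap, in either direction, for 24.3% of all genes tested. For methionine, MARS to MARS2 was 7.47, 7.89 and 11.3 with DMSO and 17.6, 12.4 and 17.5 with GSK-J4, higher in each GSK-J4 library than in any DMSO library. For isoleucine, IARS to IARS2 was 3.53, 5.15 and 5.75 with DMSO and 5.80, 9.16 and 8.04 with GSK-J4, narrowly clear of overlap. The histidine ratio, HARS to HARS2, was 8.90, 10.1 and 11.4 with DMSO and 14.0, 12.1 and 15.6 with GSK-J4. The phenylalanine ratio, FARSA to FARS2, was 1.95, 1.51 and 1.97 with DMSO and 1.47, 1.48 and 1.49 with GSK-J4, close to equal among the GSK-J4 libraries. It holds for FARSA alone, since FARSB, the other subunit, was not set against FARS2. HARS and HARS2 are neighbours on chromosome 13, on the same strand and 157 bp apart. HARS had a log2 fold change of 0.40 and HARS2 of -0.04 (95% interval -0.44 to 0.35). IARS2 and EPRS likewise lie 14261 bp apart on chromosome 3, on opposite strands. These ratios were described and not tested, so no p is given for them. An exact permutation test of 3 against 3 libraries cannot go below 0.1, and no other kind of test was run on the ratios.

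Other genes that serve tRNA were counted in 7 lists by known role, without the members. The lists were chosen with earlier results of these data known, so their counts are a description and not a test. In the list on sensing of uncharged tRNA and amino acid supply, 4 of 23 tested genes rose, 0 fell (0 also at an unadjusted p below 0.05, in DESeq2 and in limma-trend) and 19 were not called. These counts stand beside 1.05% higher and 3.99% lower over all genes, and the median of their log2 fold changes was 0.15. The 4 were ATF4 (0.62, SE 0.10), the ATF4 partner CEBPG (0.47), ATF3 (0.92) and SESN2 (1.77), which restrains mTORC1 when leucine is short. ATF4, CEBPG and ATF3 are transcription factors and not themselves sensors of uncharged tRNA. Whether uncharged tRNA had a part in these values was not tested. Leaving out DMSO replicate 2, or either of GSK-J4 replicates 2 and 3, gave a count of 2, with ATF4 and SESN2 still called and ATF3 and CEBPG lost each time. ATF4 had 468, 477 and 439 CPM in DMSO replicates 1, 2 and 3 and 656, 760.2 and 704 CPM in GSK-J4 replicates 1, 2 and 3, with no overlap and with replicate 2 the highest of each group, an edgeR adjusted p of 0.00602, and a call in each of the 6 fits that left out a library. With the chromosome W covariate the ATF4 log2 fold change was 0.63 with an adjusted p of 0.055, and SESN2 alone of the list was called. EIF2AK4, which encodes GCN2, had 44.4 ± 5.92 CPM under DMSO and 54.5 ± 5.17 CPM under GSK-J4 (mean ± SD, n = 3) and did not pass (log2 fold change 0.30, edgeR adjusted p = 0.262).

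Of 57 tested tRNA modification genes, 1 fell and 0 rose, with a median of 0.03, 3 and 2 at an unadjusted p below 0.05, and 2 and 0 in DESeq2, in the order lower and higher. In the same order, 3.99% and 1.05% of all genes tested were called. At an unadjusted p below 0.05, 11% and 8.1% were, so these counts do not set the list apart. The gene that fell was QTRT2, a subunit of the enzyme that puts queuine into tRNA, with 30.5, 31.2 and 26.2 under DMSO and 20.2, 18.6 and 19.9 CPM under GSK-J4 (log2 fold change -0.58, edgeR adjusted p = 0.0314). Leaving out DMSO replicate 2 or any 1 GSK-J4 library ended that call, with adjusted p up to 0.17, and 2 genes were lower without DMSO replicate 1. None of 21 genes of tRNA processing, splicing and export was called in edgeR, DESeq2 or limma-trend (0 also at an unadjusted p below 0.05, median -0.07), nor any of 17 genes of tRNA transcription by RNA polymerase III (1 higher and 1 lower unadjusted, median -0.01). In the latter list, leaving out GSK-J4 replicate 1 gave 1 higher gene and leaving out DMSO replicate 2 gave 1 lower gene. None of 6 other charging and proofreading genes (median 0.10) and none of 11 mitochondrial charging partners and translation factors (median 0.15) passed, also unadjusted and in DESeq2 and limma-trend. The latter include QRSL1 (0.27), GATB (0.28) and GATC (-0.02), subunits of the amidotransferase that makes mitochondrial glutaminyl-tRNA, in place of a mitochondrial glutaminyl synthetase. Among 4 tested genes of elongation factor 1 (EEF1A1, EEF1A2, EEF1B2 and EEF1D), which carries charged tRNA to the ribosome, EEF1A2 fell (log2 fold change -1.14, SE 0.27, edgeR adjusted p = 0.038), with 28.5, 35.6 and 15.7 under DMSO and 13.3, 13.8 and 9.04 CPM under GSK-J4. Its call remained in only 1 of the 6 fits that left out a library, that without DMSO replicate 3, and adjusted p reached 0.15 without GSK-J4 replicate 3. EEF1D, at 0.39 (SE 0.11, edgeR adjusted p = 0.083), was the 1 higher gene of that list at an unadjusted p below 0.05 and in DESeq2, and 0 were higher in edgeR.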

How the data were processed

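RNA from cultured chicken lens was sequenced as 150 bp paired-end reads, per the labels' protocols. The authors deposited whole-number counts per gene, not normalised, and FPKM values per gene for the same 6 libraries. A check on the values found FPKM to be counts over gene length and over a constant of each library, which was 0.874 to 0.979 of its total. The submitters' processing notes name, with no role for any, DESeq2 1.20.0, StringTie 1.3.3b, HISAT2 2.0.5 and featureCounts 1.5.0-p3. No source used here gives the genome build, the annotation release or whether counting used strand. Coordinates are the table's own. The symbol HARS2 came from a RefSeq table of assembly GRCg7b.

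Counts were tested in R 4.3.3 with edgeR 4.0.16 (filterByExpr, TMM, robust quasi-likelihood F test, treatment as the only factor), with Benjamini-Hochberg adjustment over all 12583 genes tested and a threshold of 0.05, after a check on simulated counts. In that check, 13.1% of genes given a log2 fold change of 0.5 were called in the right direction. At a log2 fold change of 1, 68% were, and 11 genes simulated as unchanged were called. Each size of change was given to 100 genes, and the 11 are to be set against the calls made, not against all genes simulated. Standard errors were obtained from the F statistic of each gene. CPM are TMM-normalised. The biological coefficient of variation was 16.9% at library totals of 14862268 to 22541756 counts. Alternatives were DESeq2 size factors, library totals, no filter, a floor of 1 CPM to be passed in 3 libraries, DESeq2 1.42.0, limma-trend (limma 3.58.1) on log2 FPKM with a pseudocount of 0.1 or 1 where mean FPKM reached 0.5, a replicate block, each library left out and, added after seeing the data, chromosome W counts as a covariate. Libraries of a group differed by more than sampling noise (chi-square of 10.3 to 33.1 per degree of freedom). Whether separate birds or cultures gave them is not stated. The p-values here therefore set the group difference only against the spread of these libraries, which may be technical in part.

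Members and lists were chosen with earlier results of these data known. Named genes were called members, the 3 highest and 3 lowest fold changes of the cytosolic and of the mitochondrial members, the highest and lowest levels, their partners by amino acid, ATF4 and up to 3 called genes of each list. The other members named, and ATF3, EIF2AK4, EEF1D, QRSL1, GATB and GATC, were chosen after their values were seen. Valyl-tRNA synthetase and the mitochondrial seryl and threonyl enzymes were not analysed here. One mitochondrial member enters the counts and sums but is not reported singly here.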

Additional observations from a re-analysis of the deposited data

How the results depend on the processing

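Of the cytosolic members, as of all members, 7 were called higher in DESeq2, 9 with a replicate block, 0 with the chromosome W covariate and 0 to 5 with 1 library left out. With the block these were SARS, QARS, IARS (adjusted p = 0.0008), GARS (0.0055), CARS (0.0068), WARS (0.019), HARS (0.021), TARS (0.025) and YARS (0.025). The labels do not say that the numbers pair the libraries: correlations of deviations between same-numbered libraries were 0.30, 0.17 and 0.04 over all genes, where GSK-J4 replicate 3 correlated best with DMSO replicate 2 (0.11), and 0.61, 0.30 and 0.42 over the 38 members, where every GSK-J4 library correlated best with the DMSO library of its own number. Called genes over the whole table were 269 higher without a filter, 325 in DESeq2, 406 with the block and 33 with the covariate, and 329 and 319 lower in limma-trend (pseudocounts 0.1 and 1) and 167 with the covariate; leaving out 1 library gave 42 to 271 higher and 203 to 590 lower. In the elongation factor list, 1 was higher without a filter, in DESeq2 and with the block, and 0 lower without a filter, in limma-trend and with the covariate (0 to 1 with 1 library left out). The RNA polymerase III list had 1 higher with the block and 0 to 1 in either direction with 1 library left out; the modification list had 2 lower with library totals, without a filter, in DESeq2 and with the block, 0 with the covariate and 0 to 2 with 1 library left out; the sensing list had 2 higher in limma-trend, 1 with the covariate and 2 to 3 with 1 library left out. With library totals, the mitochondrial median log2 fold change was -0.046 and the mitochondrial ratio of summed CPM 0.968, and DARS was at -0.021, TARSL2 at -0.050, IARS2 at -0.019 and CARS2 at -0.054. KARS was at 0.011 without a filter, 0.012 and 0.011 in limma-trend, 0.0028 with a 1 CPM floor, 0.0030 with the block and 0.040 with the covariate, where RARS was at 0.023, IARS2 at -0.0035 and HARS2 at 0.020; AARS2 was at 0.0023 and 0.00078 in limma-trend. With 1 library left out, log2 fold changes ran from -0.0064 to 0.12 for TARSL2, -0.10 to 0.091 for KARS, -0.096 to 0.025 for RARS, -0.16 to 0.083 for PRORSD1P, -0.0045 to 0.17 for IARS2, -0.13 to 0.11 for AARS2, -0.12 to 0.057 for HARS2, -0.17 to 0.037 for RARS2, and the mitochondrial median from 0.033 to 0.087. With all libraries in the fit, the 95% interval of each of these genes contained 0. The cause of these shifts was not tested. With 3 libraries a group and a biological coefficient of variation of 16.9%, a member that missed the threshold was not shown to be unchanged.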
